A study of Mus musculus with 41 samples.

Results

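SOX9 CUT&RUN (CNR) peaks of weeks (W) 2 and 6 of SOX9 induction in mouse back skin were compared, the step in this model from a switched cell fate to early lesions. The members are all peaks of both lists, 18657 at W2 and 20579 at W6, together 39236 of the 328105 peaks in the 18 peak lists of the series. A peak was shared if a peak of the other list overlapped it by at least 1 bp, and W2-only or W6-only if none did. By this rule 14005 W2 peaks were shared and 4652 were W2-only, while 13402 W6 peaks were shared and 7177 were W6-only. Merging both lists gave 25208 regions.

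Both groups were male CD1 mice of the genotype K14rtTA; TRE-myc-Sox9, given doxycycline (DOX) from postnatal day 21. The *Krt14* promoter drives rtTA, so that DOX switches on MYC-tagged *Sox9* in the basal layer of the epidermis. The mice were 35 postnatal days old at W2 and 63 at W6, so age and weeks of DOX cannot be told apart. Epidermal stem cells (EpdSCs) were sorted as CD49f-high, Ly6A-high cells lacking CD31, CD45, CD117, CD140a and CD34, and both time points were profiled with the same SOX9 antibody. Each time point had 2 samples, 4 of the 41 in the series, but 1 pooled peak list, so no spread between samples could be computed and no test between W2 and W6 was made. The lists hold no expression values, so the sorted cell type could not be checked against its markers. A pooled list also cannot tell more bound cells apart from more binding per cell.

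SOX9 is an HMG-box transcription factor of hair follicle stem cells that binds a short SOX sequence and bends the DNA. It is known as a pioneer factor, one that can bind its sequence in closed chromatin, and adult EpdSCs of the interfollicular epidermis normally lack it. AP1, the dimers of FOS and JUN proteins, binds enhancers throughout the epidermis. MLL3 and MLL4 are methyltransferases that place H3K4me1 on enhancers, and their CNR peaks mark enhancers and promoters in use.

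The depth of both lists could be read from the maximum signals, which are in RPKM (reads per kb, scaled for depth), so that levels of W2 and W6 are each relative to their own libraries. All of the 18261 W2 maxima and 20290 W6 maxima up to 10000 RPKM were whole multiples, within 0.02, of 1 value, the RPKM of a single fragment. This value was 76.4 RPKM at W2 and 42.0 RPKM at W6, which implied 13.1 and 23.8 M fragments. The weakest peak therefore held 24 fragments at W2 and 43 at W6, although both lists had been kept above 1800 RPKM by the authors. The W6 track thus rested on more fragments, as counted after the authors' filters on duplicates and length, and the part of this depth in what follows was not tested. Per chromosome, the W2-only share ranged over the autosomes from 18.9% to 28.8% and the W6-only share from 30.4% to 40.0%, and on the X chromosome they were 34.8% and 46.6%. The Y chromosome held 0 peaks in both lists.

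The windows below show the type of site that stood highest in each class by total signal, leaving out peaks that SOX9 before DOX (D0) or the MYC tag in cultured cells without DOX also gave. Each window is mm10 sequence within 50 bp of the signal maximum, read on the plus strand. Capitals mark a SOX word (CCATTGT or CCTTTGT, and likewise GCATTGT or GCTTTGT, on either strand) or an AP1 word (TGACTCA or TGAGTCA). The order is that of rank, the W6-only peak near *Agbl1* was added after its words were seen, the second shared peak, near *Ccdc192*, is not shown, and the names are those of the protein-coding gene with the nearest 5′ end.
W2-only peak near *1600014C23Rik*, chr17:45785001-45785101: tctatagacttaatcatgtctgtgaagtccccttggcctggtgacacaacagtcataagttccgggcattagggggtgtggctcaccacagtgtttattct
W2-only peak near *Tmem17*, chr11:22636626-22636726: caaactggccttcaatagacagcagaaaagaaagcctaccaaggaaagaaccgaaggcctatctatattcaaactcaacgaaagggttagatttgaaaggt
W2-only peak near *Inhbb*, chr1:119447036-119447136: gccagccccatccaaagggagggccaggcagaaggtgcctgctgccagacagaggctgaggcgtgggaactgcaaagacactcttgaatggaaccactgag
W6-only peak near *Prdm1*, chr10:44716756-44716856: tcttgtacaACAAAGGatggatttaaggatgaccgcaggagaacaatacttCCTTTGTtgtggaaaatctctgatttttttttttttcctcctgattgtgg
W6-only peak near *Has2*, chr15:56975746-56975846: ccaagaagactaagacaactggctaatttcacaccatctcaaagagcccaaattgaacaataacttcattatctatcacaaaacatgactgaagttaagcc
W6-only peak near *Shisa2*, chr14:59780521-59780621: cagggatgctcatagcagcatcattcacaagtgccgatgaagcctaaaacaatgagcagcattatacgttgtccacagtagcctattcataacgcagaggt
W6-only peak near *Nrip1*, chr16:76471778-76471878: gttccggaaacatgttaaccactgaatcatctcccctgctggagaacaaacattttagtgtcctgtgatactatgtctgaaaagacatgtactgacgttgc
W6-only peak near *Agbl1*, chr7:76408284-76408384: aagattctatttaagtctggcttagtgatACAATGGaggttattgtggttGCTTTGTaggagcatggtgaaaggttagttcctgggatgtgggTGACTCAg
shared peak near *Tle1*, chr4:72233885-72233985: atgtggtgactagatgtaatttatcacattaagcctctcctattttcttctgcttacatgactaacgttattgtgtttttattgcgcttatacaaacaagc
shared peak near *Tcim*, chr8:24481413-24481513: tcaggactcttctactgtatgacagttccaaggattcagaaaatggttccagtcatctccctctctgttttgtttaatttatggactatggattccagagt
shared peak near *Sgk1*, chr10:21848037-21848137: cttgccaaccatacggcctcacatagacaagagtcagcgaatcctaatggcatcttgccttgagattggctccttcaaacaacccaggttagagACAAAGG
shared peak near *Adgrl2*, chr3:148429400-148429500: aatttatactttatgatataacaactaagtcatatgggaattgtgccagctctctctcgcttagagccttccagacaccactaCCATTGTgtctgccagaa
None of the 8 W2-only peaks named by rank held a SOX or AP1 word, whereas 2 of 8 W6-only and 5 of 8 shared peaks did. Near *Prdm1*, which encodes the transcriptional repressor BLIMP1, the W6-only window held 2 SOX words on opposite strands, and near *Agbl1* it held 2 SOX words and 1 AP1 word. Absence of capitals says that these letters were not found in these windows.

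Most of the SOX9 sites of W2 were also in the list of W6. The W6 list overlapped 75.1% of the W2 peaks (95% Wilson confidence interval, CI, 74.4 to 75.7), and the W2 list overlapped 65.1% of the W6 peaks (95% CI 64.5 to 65.8). Peaks moved by 10 kb to each side, taken as the local background, gave 4.80% and 4.22%. When both lists were kept above 3600 RPKM, the order turned, with 59.8% of W2 and 67.9% of W6 peaks shared. These and all later intervals cover counting error over peaks only. The border of the rule held few peaks. Of 14027 overlapping pairs, 6 shared 50 bp or less, the smallest overlap was 2 bp, and the median was 435 bp. On the other side, 17 W2-only and 4 W6-only peaks lay within 50 bp of a peak of the other list, whereas the median gap was 10949 bp for W2-only and 18991 bp for W6-only peaks. More than 50 kb from any peak of the other time point lay 20.2% of the W2-only and 30.7% of the W6-only peaks.

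Whether a site was shared followed its signal at both time points. In the decile of the W2 list with the highest total signal, 99.4% of peaks (95% CI 98.9 to 99.7) were shared and 11 were not, against 46.9% (95% CI 44.7 to 49.2) in the decile with the lowest. At W6 the corresponding shares were 97.1% (95% CI 96.3 to 97.8) and 21.7% (95% CI 20.002 to 23.6). Each step down the deciles had a lower share in both lists. Of the maxima above 3600 RPKM, 292 were W2-only and 752 were W6-only, beside 6551 shared peaks at W2 and 5127 at W6.

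**Figure D1:**
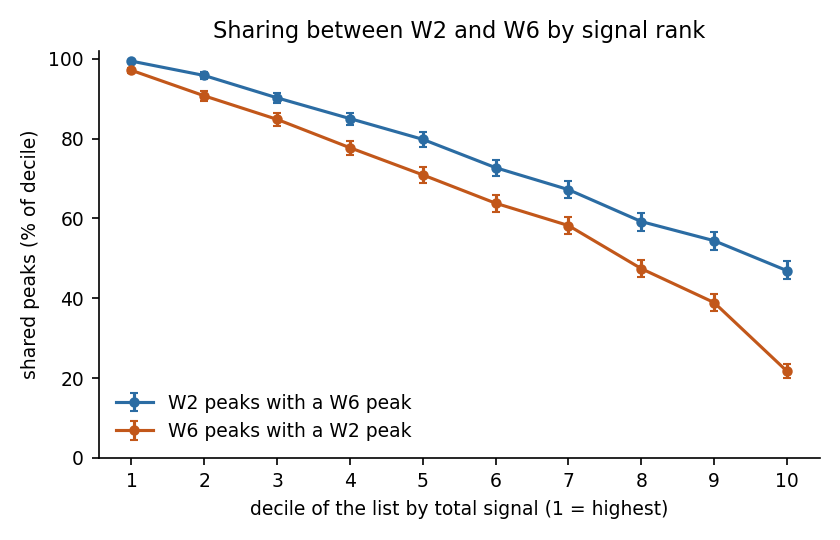
Share of peaks that overlap a peak of the other time point (y axis, percent) in each decile of a list by total signal (x axis, 1 is the highest), for W2 (blue) and W6 (orange), with 95% Wilson intervals. Both lines fall at every step, from 99.4% to 46.9% at W2 and from 97.1% to 21.7% at W6.

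Unshared peaks were also narrower and weaker. Median width was 396 bp for W2-only peaks (quartiles 325 and 489) and 453 bp for shared W2 peaks (354 and 598). At W6 it was 492 bp for W6-only (385 and 639) and 665 bp for shared peaks (508 and 879). The median maximum was 2445 RPKM, or 32 fragments, for W2-only peaks and 2309 RPKM, or 55 fragments, for W6-only peaks, and 3514 and 3106 RPKM for shared peaks at W2 and W6. Of the W2-only peaks 49.6% and of the W6-only peaks 56.6% had a maximum of 2400 RPKM or less, against 15.1% and 26.5% of the shared peaks. At the lower border, 620 W2 peaks and 1895 W6 peaks had a maximum of 1900 RPKM or less. Width at the same site also differed between times. In 12770 pairs of 1 W2 and 1 W6 peak, the W6 peak was the wider in 86.8%, with medians of 453 bp at W2 and 652 bp at W6. Their maxima lay a median of 12 bp apart, and 594 W6 peaks covered 2 or more W2 peaks, against 22 in the opposite case.

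W2-only peaks lay more often at promoters, and W6-only peaks farther from the 5′ ends of genes. Promoters, that is 1 kb to each side of an annotated transcript start, were overlapped by 30.7% (95% CI 29.4 to 32.1) of W2-only and 11.8% (95% CI 11.1 to 12.6) of W6-only peaks, a difference of -18.9 percentage points (95% CI -20.5 to -17.4). Shared peaks stood between them, at 22.8% at W2 and 23.5% at W6. Of all W2-only and W6-only peaks, introns outside promoters held 36.4% and 45.2%, intergenic DNA 29.9% and 39.8%, and exons 2.99% and 3.19%. Among the peaks outside promoters alone the classes were closer, with 1693 of 3223 W2-only and 3247 of 6331 W6-only peaks in introns and 1391 and 2855 in intergenic DNA. The 5′ end of the nearest protein-coding gene was a median of 18.5 kb away for W2-only, 26.2 kb for shared W2 and 37.9 kb for W6-only peaks. Over 50 kb away lay 31.4% (95% CI 30.1 to 32.7) of W2-only and 42.7% (95% CI 41.6 to 43.9) of W6-only peaks.

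To ask whether the sites listed at only 1 of the times had carried MLL3/4 in EpdSCs before induction, both classes were set against MLL3/4 CNR of D0. W2-only peaks lay on D0 MLL3/4 peaks in 68.1% of cases (95% CI 66.8 to 69.5, background 5.07%), against 65.7% of shared W2 peaks (95% CI 64.9 to 66.5, background 5.82%). W6-only peaks did so in 27.3% (95% CI 26.2 to 28.3, background 3.81%). The difference between the unshared classes was -40.9 percentage points (95% CI -42.6 to -39.2). MLL3/4 peaks of W2 separated them likewise, with 71.3% of W2-only, 81.1% of shared W2 and 25.2% of W6-only peaks (background 4.70%, 5.80% and 3.54%). No MLL3/4 peak of D0, W1 or W2 overlapped 57.4% (95% CI 56.3 to 58.6) of W6-only peaks, against 10.4% (95% CI 9.58 to 11.3) of W2-only peaks. The series holds MLL3/4 CNR of skin at D0, W1 and W2 only, so W6-only peaks could be set only against MLL3/4 of earlier times.

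The classes also differed in their overlap with the SOX9 lists before and after this step, which held 15651 peaks at W1 and 9745 at W12. SOX9 peaks of W1 overlapped 42.1% of W2-only peaks (95% CI 40.7 to 43.6, background 3.88%). They overlapped 16.2% of W6-only peaks (95% CI 15.4 to 17.1, background 2.63%) and 77.5% of shared peaks at either time. SOX9 peaks of W12, from grafted skin, overlapped 1.76% (95% CI 1.42 to 2.18) of W2-only peaks, near the background of 1.23%. They overlapped 32.5% (95% CI 31.4 to 33.5, background 1.60%) of W6-only peaks and 43.5% of shared W6 peaks. Of the W2-only peaks 57.4% were in neither the W1 nor the W12 list, and of the W6-only peaks 56.1%. In cultured keratinocytes with full-length transgenic SOX9 (WT-SOX9), MYC-tag peaks overlapped 1.66% (95% CI 1.33 to 2.06) of W2-only and 11.2% (95% CI 10.5 to 12) of W6-only peaks (background 0.408% and 0.634%), and those of SOX9 lacking its transactivation domain (dTA-SOX9) 4.90% and 17.5% (background 0.709% and 0.941%). The uninduced lists, of 792 peaks for D0 SOX9 and 2242 for the MYC tag without DOX, overlapped few unshared peaks, but more than the background. The D0 SOX9 list overlapped 0.408% of W2-only and 0.418% of W6-only peaks (background 0.161% and 0.195%). The MYC-tag list without DOX overlapped 2.56% and 1.88% (background 0.140% and 0.167%).

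**Figure D2:**
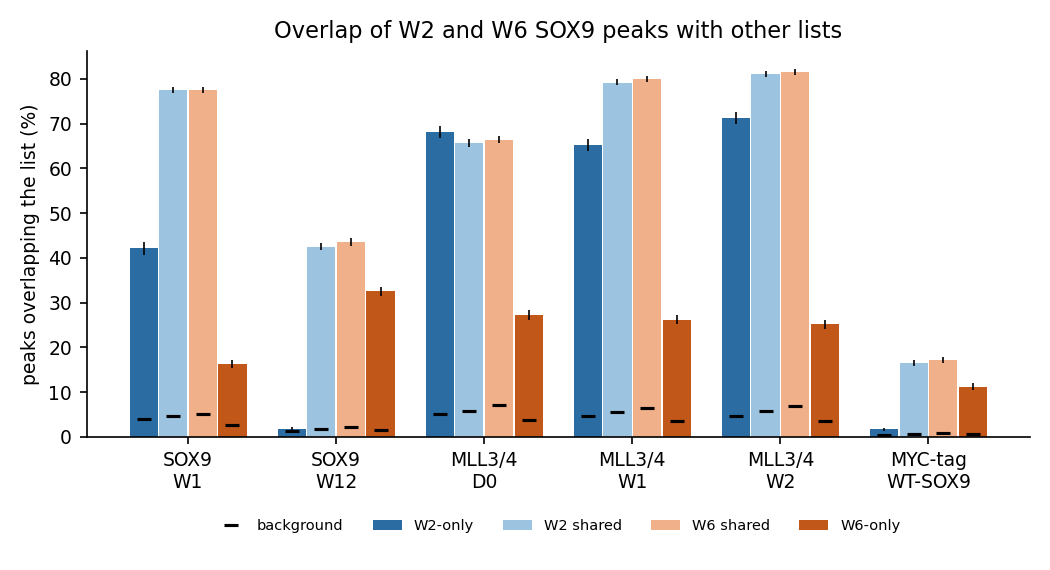
Share of SOX9 peaks (y axis, percent) that overlap SOX9 peaks of W1 and W12, MLL3/4 peaks of D0, W1 and W2, and MYC-tag peaks of cultured WT-SOX9 cells (x axis), for 4 classes of W2 and W6 peaks, with 95% Wilson intervals and black dashes for the same peaks moved 10 kb. W6-only peaks are low for MLL3/4 (27.3% at D0) and W2-only peaks are near the background at W12 (1.76%).

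SOX and AP1 words were above their controls in both unshared classes, and more frequent in W6-only than in W2-only windows. Of the W2-only windows 9.01% (95% CI 8.22 to 9.86) held the SOX word, against 6.02% of control windows 1 kb to each side, a ratio of 1.5. Of the W6-only windows 20.2% (95% CI 19.2 to 21.1, control 6.38%) held it, a ratio of 3.16, and of the shared windows 17.6% at W2 and 18% at W6. The difference between the unshared classes was 11.2 percentage points (95% CI 9.91 to 12.4). A longer SOX word (CCATTGTT or CCTTTGTT) was found in 1.78% of W2-only and 5.67% of W6-only windows, with controls of 0.860% and 0.975%. For AP1 the gap was wider. Its word was found in 7.35% (95% CI 6.64 to 8.14) of W2-only, 18.4% of shared W2, 20.2% of shared W6 and 29.8% (95% CI 28.8 to 30.9) of W6-only windows, with controls between 1.87% and 2.05%. These were 3.93 times the control in W2-only and 14.6 times in W6-only windows. The difference between W6-only and W2-only was 22.5 percentage points (95% CI 21.2 to 23.8). Neither word was found in 84.1% of W2-only and 53.2% of W6-only windows.

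Words of other factors split the classes in both directions. RUNX factors, which include RUNX1 of hair follicle stem cells, bind AACCACA. This word was found in 3.75% (95% CI 3.33 to 4.21) of W6-only windows, above its control of 2.29%, and in 1.57% (95% CI 1.25 to 1.97) of W2-only windows, below its control of 2.63%. The GATA word (AGATAAC or AGATAAG), bound by GATA3 in the epidermis, went the other way, with 3.74% (95% CI 3.23 to 4.32) of W2-only windows (control 2.02%) and 1.67% (95% CI 1.40 to 2.00) of W6-only windows (control 2.42%). The KLF/SP word GGGCGG, common at CpG-rich promoters, was found in 13.7% of W2-only and 3.73% of W6-only windows (controls 2.71% and 1.79%), and the ETS word CCGGAAG in 2.36% and 0.752% (controls 0.645% and 0.411%). W2-only windows were also richer in G and C, at a mean of 51.5% against 45.3% in W6-only windows (controls 46.2% and 44.4%). Of the other words searched, the TEAD word ACATTCC differed by -0.57 points (95% CI -1.12 to -0.02) and the LHX word CTAATTA by 0.58 points (95% CI 0.21 to 0.94). For the NF-kB, GLI (GGTGGTC), CTCF, NFI and TP63 words the interval of the difference held 0, and each was in at most 0.279% of the windows of either unshared class. The GLI word was below its controls, with 0.215% of W2-only (control 1.09%) and 0.209% of W6-only windows (control 0.843%). The NF-kB word was above them, with 0.172% (control 0.0430%) and 0.237% (control 0.0697%), or 8 and 17 windows.

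**Figure D3:**
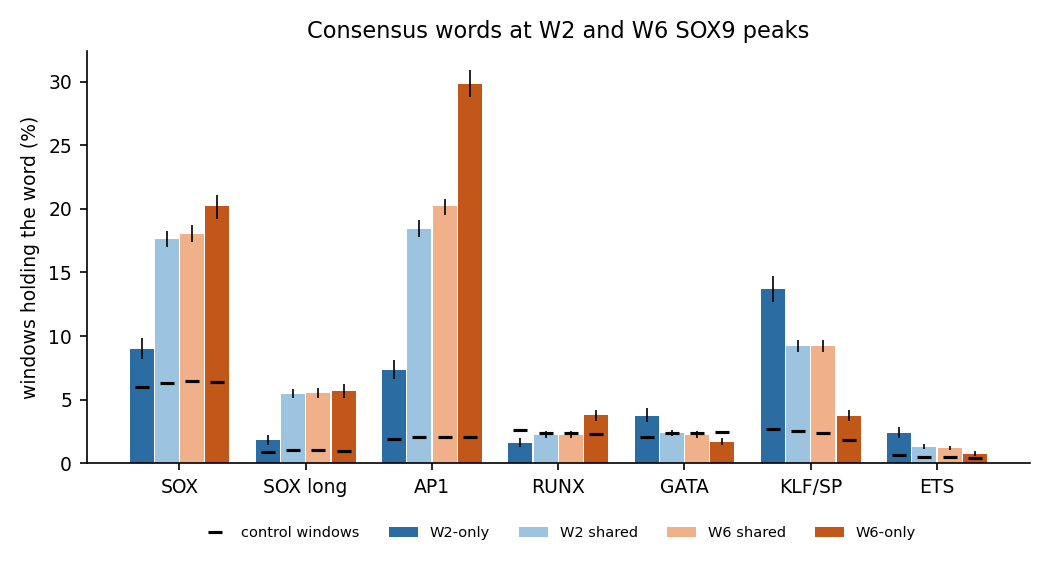
Share of windows of 50 bp to each side of SOX9 maxima (y axis, percent) that hold the word of each factor family (x axis), for W2-only, shared and W6-only peaks, with 95% Wilson intervals and black dashes for control windows 1 kb to each side. AP1 (7.35% against 29.8%), SOX and RUNX words are more frequent in W6-only windows, and GATA, KLF/SP (13.7% against 3.73%) and ETS words in W2-only windows.

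Because promoters were unequally shared, the words were counted apart from them. In peaks outside promoters, 10.7% of 3223 W2-only and 20.9% of 6331 W6-only windows held the SOX word, 9% and 31.2% the AP1 word, 1.68% and 3.95% the RUNX word and 4.59% and 1.72% the GATA word. The KLF/SP word outside promoters was found in 3.63% and 2.16%, against 36.3% and 15.5% of the windows of promoter peaks. D0 MLL3/4 peaks divided the SOX and AP1 words. Among W6-only peaks on a D0 MLL3/4 peak, 7.87% held the SOX word and 36.8% the AP1 word, whereas among those off it 24.8% and 27.3% did. Among shared W6 peaks the values were 10.9% and 22.6% on, and 32.1% and 15.3% off, a D0 MLL3/4 peak. For W2-only peaks they were 7.10% and 8.11% on, and 13.1% and 5.74% off.

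In W6-only and shared windows, SOX and AP1 words occurred together less often than the product of their shares would give. Both were found in 3.22% (95% CI 2.83 to 3.65) of W6-only windows, against a product of 6.02%, in 2.19% (95% CI 1.96 to 2.45) of shared W2 windows, against 3.25%, and in 2.36% (95% CI 2.11 to 2.63) of shared W6 windows, against 3.63%. In W2-only windows the product, 0.662%, lay within the interval of the share found (0.473%, 95% CI 0.313 to 0.715). Where both were present, they started a median of 30 bp apart in W6-only and 26 bp apart in W2-only windows. AP1 words lay close to the maximum in W6-only windows, 68.2% of them within 20 bp, against 51.4% in W2-only windows, and for SOX words these shares were 51.2% and 42.7%.

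The differences between the unshared classes were also present within bands of signal. Within maxima of 1800 to 2400 RPKM, 7.2% (95% CI 6.21 to 8.32) of 2307 W2-only and 26.9% (95% CI 25.6 to 28.3) of 4060 W6-only windows held the AP1 word. Above 3600 RPKM 7.88% (95% CI 5.31 to 11.5) of 292 and 33.2% (95% CI 29.97 to 36.7) of 752 did. For the SOX word the shares were 8.50% and 18% in the lower band and 10.6% and 28.2% in the upper. D0 MLL3/4 peaks were overlapped by 67.0% of W2-only and 31.1% of W6-only peaks in the lower band, and by 69.2% and 14.0% in the upper. Stronger W6-only peaks were thus less often on D0 MLL3/4 peaks and more often held a SOX word, whereas the intervals of both bands overlapped for W2-only peaks.

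Shared sites also varied with the ratio of their maxima. In the 12770 pairs of 1 W2 and 1 W6 peak, the median log2 ratio of the maxima (W6 over W2) was -0.19, with quartiles of -0.49 and 0.14, and total-signal ranks had a Spearman correlation of 0.70 across pairs. At least 2-fold higher at W6 were 196 pairs, or 1.53%, and at least 2-fold lower 389 pairs, or 3.05%. These ratios chose the quintiles that follow, and words, promoters and MLL3/4 did not enter them. From the quintile of pairs with the lowest ratio to the quintile with the highest, 10.6%, 15.7%, 18.8%, 23.8% and 31.9% of W6 windows held the AP1 word. The SOX word went from 14.0% (95% CI 12.7 to 15.4) to 23.4% (95% CI 21.8 to 25.1), and the RUNX word from 1.80% to 3.01%. D0 MLL3/4 overlap went from 77.7% (95% CI 76.1 to 79.3) to 47.0% (95% CI 45.1 to 48.9), and promoter overlap from 34.3% to 11.6%. W12 peaks overlapped 24.4% of the lowest and 66.9% of the highest quintile, whereas W1 peaks overlapped 82.2% and 69.2%. Among the 196 pairs at least 2-fold higher at W6, 94.4% (95% CI 90.2 to 96.8) had a W12 peak, against 15.4% (95% CI 12.2 to 19.3) of the 389 at least 2-fold lower. The level of signal moved with these ratios. The median W6 maximum was 5793 RPKM in the former and 2225 RPKM in the latter pairs, and went from 2435 to 4156 RPKM between the lowest and the highest quintile, while the median W2 maximum went from 4278 to 2827 RPKM. Among shared W6 peaks of 1800 to 2400 RPKM and above 3600 RPKM, the AP1 word was also in 13.0% and 26.1%, the SOX word in 10.6% and 26.3%, promoters in 32.3% and 14.8%, and D0 MLL3/4 peaks in 73.8% and 57.5%. The part of signal level in the differences between quintiles was not tested.

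**Figure D4:**
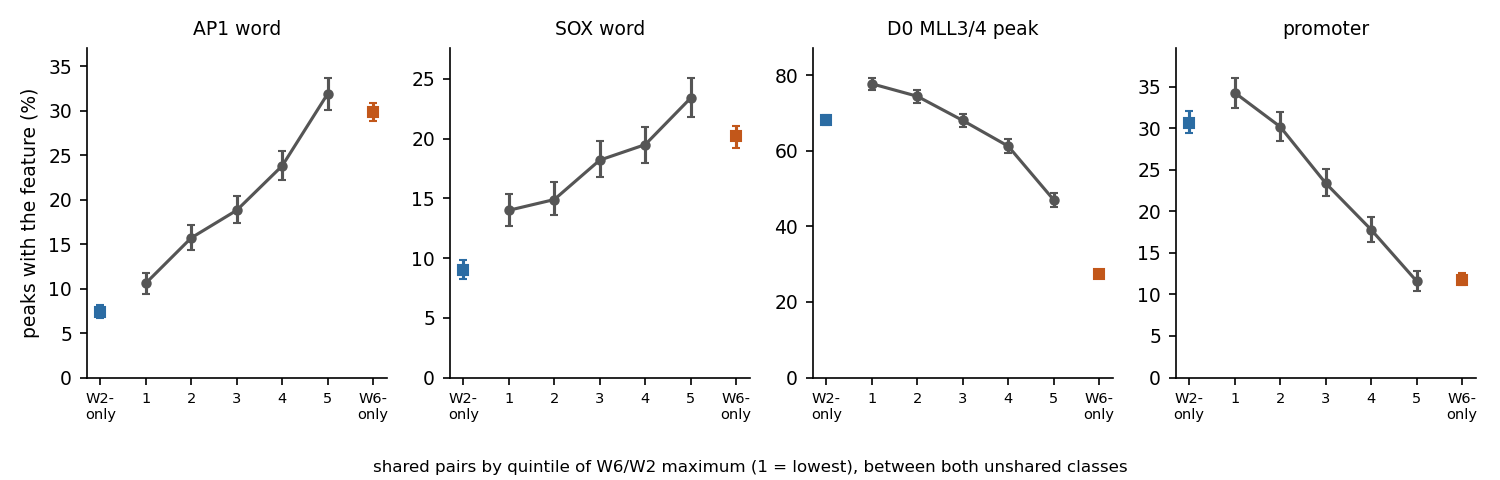
Share of peaks (y axis, percent) with an AP1 word, a SOX word, a D0 MLL3/4 peak or a promoter (4 panels), for shared pairs by quintile of the ratio of W6 to W2 maximum (grey, 1 is the lowest ratio), with W2-only (blue) and W6-only (orange) peaks at either side and 95% Wilson intervals. AP1 and SOX words are more frequent toward quintile 5 (10.6% to 31.9% for AP1) and the other features less frequent (77.7% to 47.0% for D0 MLL3/4).

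The pairs that differed most, among 7113 with a maximum above 3600 RPKM at either time, are given one by one. Upstream of *Stac*, an intergenic peak (chr9:111731622-111733060 at W6) had a maximum of 3209 RPKM at W2 and 13139 RPKM at W6, 4.09 times as high. A peak at an annotated start 53.2 kb upstream of *Otol1* had 2827 and 11376 RPKM, one 460 kb downstream of the *Rnf144b* start 1910 and 7640 RPKM, and one in an intron 762 kb downstream of the start of *Sox5*, a SOX factor of cartilage, 3056 and 10998 RPKM. The last of the 5, in an intron near *5330417H12Rik*, had 1834 and 6464 RPKM. All 5 had a W12 peak, and none had a D0 MLL3/4 peak. Their W6 windows held 0 AP1 words, and 2 held a SOX word, although the AP1 word was most frequent in the quintile they belong to.
Opposite to them, an intronic peak downstream of the *Fam19a4* start (chr6:96944818-96945486 at W6) had a maximum of 10161 RPKM at W2 and 1931 RPKM at W6, 5.26 times lower. An intronic peak downstream of the start of *Arid5b*, a chromatin regulator, had 10161 and 2477 RPKM, and one near *Gm10160* had 10696 and 2896 RPKM. Introns 1.66 kb downstream of the start of *Klf9*, a Krüppel-like factor, and 33.3 kb downstream of that of *Bcl2*, the inhibitor of apoptosis, held peaks of 6876 and 1805 RPKM and of 7181 and 1931 RPKM. All 5 had a W1 peak and none had a W12 peak. D0 MLL3/4 peaks were found at 2 of them, near *Fam19a4* and *Klf9*, and none lay at a promoter. Of their windows 0 held an AP1 word and 1, near *Bcl2*, a SOX word.

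Peaks that the D0 SOX9 list or the MYC-tag list without DOX also held were left out of those named next. Of the others, the 8 W6-only peaks of highest total signal ranked between 190 and 775 in their list, with maxima of 2980 to 11712 RPKM. None of them had a W1 peak, 7 had a W12 peak, and 2 lay on a D0 MLL3/4 peak. First was a peak of 2009 bp (chr10:44715889-44717897) at an annotated start 188 kb upstream of *Prdm1*, with 7514 RPKM, or 179 fragments. The second lay 281 kb upstream of *Has2* (chr15:56975288-56976265), which makes hyaluronan of the extracellular matrix, with 10704 RPKM, and the third 155 kb downstream of the *Shisa2* start (chr14:59779939-59781130), with 11712 RPKM. Further peaks lay near *Nrip1*, *Agbl1*, *Hrh1*, *Elk3* and *1700021F07Rik*. The 8 W2-only peaks of highest total signal ranked between 569 and 1383, with maxima of 3514 to 5730 RPKM. Of these, 7 had a W1 peak, 6 lay on a D0 MLL3/4 peak and all 8 on one of W2, and 0 had a W12 peak. First was an intronic peak of 1434 bp (chr17:45784147-45785580) 51.2 kb upstream of *1600014C23Rik*, with 3514 RPKM, or 46 fragments. The third lay 24.8 kb upstream of *Inhbb* (chr1:119446184-119447439), which encodes a subunit of activins, with 4966 RPKM. Others lay near *Tmem17*, *Afap1l2*, *Lactb*, *Zpld1*, *Znrf2* and *Foxn3*. The 8 shared peaks ranked highest after leaving these out were near *Tle1*, *Ccdc192*, *Tcim*, *Sgk1*, *Adgrl2*, *Pkd1l1*, *Jmjd1c* and *Arhgap18*, at ranks 6 to 22 of the W6 list. All 8 had W1 and W12 peaks, and 6 had a MYC-tag peak in WT-SOX9 cells.

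Some genes were the nearest to several unshared peaks, and more genes to several shared peaks. Of 4015 genes nearest to any W6-only peak, 223 were nearest to 5 or more, and of 3192 nearest to any W2-only peak, 67 were. For shared peaks these counts were 714 of 5910 genes at W2 and 663 of 5899 at W6. The genes nearest to the most W6-only peaks were *Atxn1* and *Myc*, with 14 each of the 7177. *Auts2* and *Sox9* followed with 13 each, *Ank* with 12, and *Atp2b1*, *Foxp1*, *Klf5*, *Pdzrn3* and *Sema5a* with 11 each. Their W6-only peaks lay a median of 49.7 to 402 kb from the 5′ end. *Atxn1*, *Ank*, *Atp2b1* and *Pdzrn3* had 0 W2-only peaks, and the other genes had 1 to 6. *Ank*, a transporter known from mineralisation of cartilage, also had 0 shared peaks, and of its 12 W6-only peaks 0 were in the W1 list, 5 in the W12 list and 0 on D0 MLL3/4 peaks. In all, 14 genes were nearest to 5 or more W6-only peaks and to no shared peak. Among them, chosen after its values were seen, was *Col9a1*, a cartilage collagen gene and known target of SOX9, with 5 W6-only peaks over 97.8 kb, of which 3 held a SOX word, 0 an AP1 word, and 2 were in the W12 list. It was also nearest to 1 W2-only peak. By the same count 3 genes stood out at W2, *Foxn3* with 7 W2-only peaks, and *Pkib* and *Speer4f2* with 5 each.

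The genes nearest to the most W2-only peaks were *4930412O13Rik* and *Asap1*, with 9 each of the 4652. *Cdh1*, *Fancc* and *Zfp608* followed with 8 each, and *Btg1*, *Clvs1*, *Foxn3*, *Gm10260* and *Insig2* with 7 each. Of these genes *4930412O13Rik* also had 26 shared W2 peaks and 10 W6-only peaks, more than its W2-only peaks, *Fancc* and *Zfp608* had 6 W6-only peaks each, *Gm10260* had 4 and *Insig2* 2, whereas *Clvs1* and *Foxn3* had 0. By its position, chr2:9881252-9883921, *4930412O13Rik* lies within *Gata3* (chr2:9857078-9890034). Its W2-only peaks lay a median of 823 kb from its 5′ end. *Cdh1* encodes E-cadherin, the adhesion protein of epithelial junctions. Its 8 W2-only peaks lay between 0.183 and 37.8 kb from its 5′ end, beside 7 shared and 0 W6-only peaks. *Asap1*, a regulator of the actin cytoskeleton, had 2 shared and 0 W6-only peaks, and *Btg1*, an antiproliferative factor, 8 shared and 0 W6-only peaks.

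At *Myc*, which encodes a growth-promoting factor, 34 W2 peaks and 31 W6 peaks were shared, and 2 W2-only and 14 W6-only peaks were added to them. The W6-only peaks lay 23.5 to 801 kb from the start, 5 upstream and 9 downstream. Of these 14, 1 lay on a D0 MLL3/4 peak, 1 was in the W1 list and 6 were in the W12 list, whereas of the 34 shared W2 peaks 22 lay on D0 MLL3/4 peaks and 31 were in the W1 list. At *Sox9* itself, the nearest of 13 W6-only peaks lay 116 kb and the farthest 664 kb from the start, 8 upstream and 5 downstream. Of these 13, 0 were in the W1 list, 3 were in the W12 list, 5 lay on D0 MLL3/4 peaks, and 4 held a SOX word. Shared peaks there numbered 12 at W2 and 11 at W6, and W2-only peaks 4. SOX9 peaks were thus found in the gene desert on both sides of *Sox9*, where enhancers of the endogenous gene are known.

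**Figure D5:**
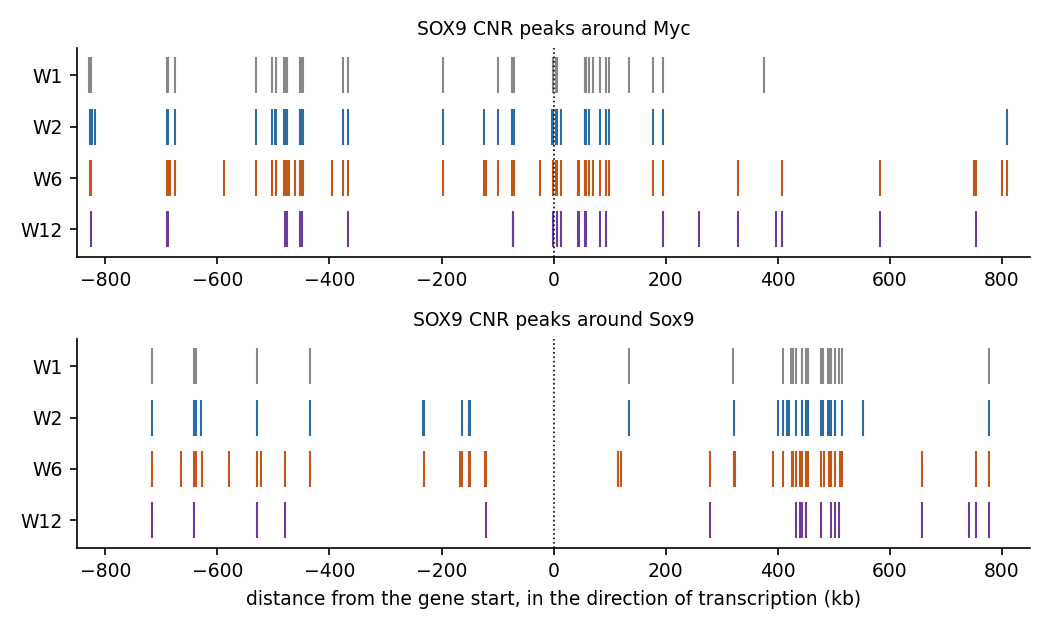
Positions of SOX9 CNR peaks (vertical ticks) of W1, W2, W6 and W12 (rows) by distance from the start of *Myc* (top) and *Sox9* (bottom) in kb, positive in the direction of transcription. The W6-only ticks whose nearest gene is *Myc* lie 23.5 to 801 kb from its start, and those of *Sox9* 116 to 664 kb. Peaks nearer to a neighbouring gene are also drawn.

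Gene groups of skin and tumour biology were described by their peaks, each gene taken with 50 kb to each side. A peak within reach of several genes counts for each of them, so totals of a group are sums of counts per gene. Over all protein-coding genes these counts sum to 11905 for the 7177 W6-only peaks. Of all 21911 protein-coding genes, 33.4% had at least 1 W6-only peak, 31.2% at least 1 W2-only peak and 49.9% at least 1 shared peak, and of the 179 listed genes 60.3%, 54.7% and 76.5%. More W6-only than W2-only peaks were found at 22.8% of all genes and the opposite at 20.5%, against 40.8% and 27.9% of the listed genes. Listed genes were longer than all protein-coding genes (median 25.2 against 17.4 kb), and the part of length in these shares was not tested. Nothing particular to a group is read from these counts.

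Of 13 transcription factors of hair follicle stem cells, 9 had more W6-only and 1 had more W2-only peaks, with 38 and 14 peaks in all. These genes were long, with a median of 83.8 kb. *Foxp1*, which restrains hair cycle entry, gave 12 of the 38 W6-only peaks, beside 3 W2-only and 5 shared W6 peaks. *Nfib*, which keeps stem cells of the follicle, had 7 W6-only, 3 W2-only and 9 shared W6 peaks, and *Tle1*, a co-repressor, 5, 2 and 2. *Nfatc1*, a factor of stem cell quiescence, had 3, 1 and 8, and *Tcf7l1*, a repressor of WNT targets, 3, 0 and 1. The factor with more W2-only peaks was *Tle4*, also a co-repressor, with 0 W6-only, 2 W2-only and 3 shared W6 peaks. Of the 4 RUNX genes, *Runx1* had 3 W6-only, 0 W2-only and 11 shared peaks, *Runx2* 4, 0 and 6, and *Runx3* 3, 0 and 1, whereas their partner *Cbfb* had 1 W2-only and 0 W6-only peaks. Of 13 surface and secreted proteins of follicle stem cells, 5 had more W6-only and 4 more W2-only peaks, with 11 and 10 in all. *Bmp6*, a ligand, had 3 W6-only and 0 W2-only peaks, whereas the keratin gene *Krt15* and *Sostdc1*, a secreted inhibitor, had 0 and 2 each.

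Of 15 epidermal factors, 8 had more W6-only and 4 more W2-only peaks, with 27 and 15 in all. *Prdm1* had 7 W6-only and 0 W2-only peaks and *Trp63*, the master factor of stratified epithelia, 4 and 1, whereas *Zfp750*, a factor of terminal differentiation, had 0 and 3. Of 11 genes of basal keratinocytes, which bind the basement membrane, 3 had more W6-only and 5 more W2-only peaks, with 22 and 21 in all. The integrin gene *Itga3* had 1 W6-only and 4 W2-only peaks, whereas *Krt5* had 4 and 0 and *Col17a1*, a hemidesmosome collagen, 5 and 1. Of 14 differentiation and junction genes, 6 had more W6-only and 4 more W2-only peaks, with 17 and 20 in all, and *Cdh1* had 11 W2-only and 2 W6-only peaks within its 50 kb.

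Signalling genes were counted by pathway. Of 9 genes of the EGF receptor and its ligands, 6 had more W6-only and 2 more W2-only peaks, with 27 and 8 peaks in all. The ligand gene *Nrg1* gave 10 of the 27 and 1 of the 8, while *Tgfa* had 4 and 0, *Areg* 4 and 0, and the receptor gene *Egfr* 4 and 2. *Nrg1*, at chr8:31814551-32884029, is far longer than the group's median of 25.2 kb, so a much longer stretch was searched for it. The ligand gene *Hbegf*, with 0 and 2, and the receptor gene *Erbb2*, with 0 and 1, went the other way. Of 11 AP1 genes, 2 had more W6-only and 6 more W2-only peaks, with 10 and 17 in all. *Fosl2* had 1 W6-only and 4 W2-only peaks, *Jund* 0 and 3, *Atf3* 0 and 2, and *Jun* 2 and 0. Of 8 NF-kB genes, 2 had more W6-only and 4 more W2-only peaks, among them *Nfkbia*, the inhibitor of the pathway, with 1 and 4, while *Nfkb2*, a subunit gene, had 3 and 0. The Hedgehog pathway, active in basal cell carcinoma, had 12 W6-only and 12 W2-only peaks over 12 genes, the WNT pathway 8 and 7 over 14, and the TGF-beta and BMP pathway 18 and 17 over 16.

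Of 16 genes of epithelial-mesenchymal transition and invasion, 7 had more W6-only peaks, 2 had more W2-only peaks, and 7 had equal counts, 6 of them with no peak of any class (*Snai1*, *Twist1*, *Twist2*, *Cdh2*, *Fn1* and *Mmp9*). The matrix genes *Sparc* and *Tgfbi* had 1 and 0 W6-only and 2 and 1 W2-only peaks. *Vim*, *Zeb1*, *Snai2*, *Zeb2* and *Mmp14* had 1, 1, 1, 2 and 2 W6-only peaks, in that order, and each had 0 W2-only and 0 shared peaks. They encode an intermediate filament of mesenchymal cells, 3 repressors of epithelial genes and a membrane-bound protease. *Plau*, a secreted protease, had 4 W6-only, 1 W2-only and 4 shared peaks. Of 11 angiogenesis genes, 5 had more W6-only and 1 more W2-only peaks, among them *Nrp2*, a receptor of vessel growth factors, and *Ets1*, an ETS factor, with 5 W6-only peaks each and 0 and 1 W2-only peaks. The growth factor gene *Pdgfa* had 0 W6-only and 3 W2-only peaks. Of 12 proliferation genes, 3 had more W6-only and 5 more W2-only peaks, and *Bcl2* had 0 W6-only and 5 W2-only peaks, whereas *Cdk6*, a cell cycle kinase, had 2 and 0.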

How the data were processed

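SOX9 CNR had been done in sorted EpdSCs, in 2 samples each at W2 and W6. Per the study's methods, the authors used Skewer for trimming, Bowtie2 2.2.9 for alignment to mm10 and Picard against duplicates, retained fragments up to 120 bp with SAMtools 1.3.1, pooled replicates and ran SEACR (stringent, threshold 0.01). Deposited maxima of the SOX9 and MYC-tag lists are RPKM values, which the authors cut at 1800. The deposited total signal, a sum over the peak, served for ranks within a list. Of the deposited MLL3/4 lists, whose coverage signal is unscaled, positions alone were used.

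Tools were Python 3.11.15 with pandas 2.3.3, numpy 2.4.6, scipy 1.17.1 (intervals) and matplotlib 3.10.9. Implied fragments are those of coverage in 1 bp steps. Genes are those of GENCODE vM21 (basic set for promoters), sequences those of GRCm38.p6. Control windows for the 14 words, searched on both strands, were centred 1 kb to each side. Named were the 8 peaks of highest total signal per class, leaving out those in the D0 SOX9 list or the MYC-tag list without DOX. Shared peaks were ordered by the mean of both ranks. Also named were the 5 pairs that differed most in each direction, the 10 genes nearest to most W2-only and most W6-only peaks, and genes of 15 lists. Members, words and lists were chosen with earlier results of these data known. Overlaps, backgrounds and word counts were checked on simulated data. In place of tests, shares carry 95% Wilson and differences 95% normal intervals. Alternatives changed the overlap, signal limit, list size, windows and chromosomes.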

Additional observations from a re-analysis of the deposited data

How the results depend on the processing

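Of 48 alternatives, 27 stayed within the 95% interval of the value reported, 21 moved past it and 0 turned the direction of a difference. A maximum above 3600 RPKM in both lists gave 59.8% of W2 and 67.9% of W6 peaks shared, the only alternative in which the W6 share was the higher, with differences of -24.2 points for promoters and -45.5 points for D0 MLL3/4 peaks. The same limit set against the whole other list gave 95.7% and 87.2% shared, and -16.3 points for promoters, 17.6 for the SOX word, 25.4 for the AP1 word and -55.2 for D0 MLL3/4 peaks. Lists of equal size gave 72.9% and 69.7% shared and -22.2 points for promoters. Counting peaks within 500 bp as shared gave 77.0% and 66.6%, and leaving out peaks of the uninduced lists 72.9% and 63%. The longer SOX word gave 3.89 points. Windows of 100 bp to each side gave 13.1 points for the SOX and 28.4 for the AP1 word. Of the listed genes, 39.1% had a W6-only peak within 10 kb, against 60.3% within 50 kb. The windows and loci reach over more or less DNA by construction, and for the other alternatives the cause was not tested.

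No paired analysis was possible because the replicates of each time point were pooled into 1 list, and for the same reason leaving out a replicate was not run. The weakest peaks held 24 fragments at W2 and 43 at W6, and the part of these counts in the calling of unshared sites was not tested. Binding below 1800 RPKM is outside both lists.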
